A study of Mus musculus with 12 samples.

Results

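The BCL-2 family decides whether a cell keeps its outer mitochondrial membrane intact or releases cytochrome c, and 10 of its genes were followed across basophils grown in interleukin-3 (IL-3) or thymic stromal lymphopoietin (TSLP). The members were taken by their gene symbols: the prosurvival genes Bcl2, Bcl2l1 (BCL-XL) and Mcl1, the pore-forming effectors Bax and Bak1, and the BH3-only genes Bcl2l11 (BIM), Bad, Bid, Bbc3 (PUMA) and Pmaip1 (NOXA). All 10 were found among the 31301 gene symbols of the count table, and all 10 passed the filter on low counts, as did 10861 genes in all. Marrow cells of C57BL/6J wild-type mice had been cultured for 7 days with IL-3 at 0.3 ng/mL or with TSLP at 1 µg/mL, and bone marrow-derived basophils (BMBAs) were then sorted as FcεRIαhi CD49blo cells, the immature stage (the study's pre-basophils), or FcεRIαlo CD49bhi cells, the mature stage. Each of the 4 groups (both stages of the IL-3 and of the TSLP cultures) held 3 libraries of polyadenylated RNA. The age of the animals is not given in the sources used here. Both cytokines were given to whole bone marrow, so the groups differ by what grew in each culture as well as by the sort gate.

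Prosurvival BCL-2 proteins hold BAX and BAK in check, and BH3-only proteins switch on death by binding the prosurvival proteins or the effectors. Survival factors of the IL-3 receptor family act on this balance through the level of MCL-1 and BCL-XL and through BIM, whose transcription is driven by FOXO factors when growth factor signalling falls. MCL-1 is a short-lived protein on which several granulocyte lineages depend, while PUMA and NOXA are known as targets of p53. What follows is RNA, and the proteins and their modifications were not measured.

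Positions are those of the GENCODE M21 annotation of GRCm38, with start and end counted from 1. Among the prosurvival genes, Bcl2 lies on chromosome 1 from 106538178 to 106714274 on the minus strand, Bcl2l1 on chromosome 2 from 152780668 to 152831728 on the minus strand and Mcl1 on chromosome 3 from 95658788 to 95663176 on the plus strand. The effector genes are Bax on chromosome 7 from 45461697 to 45466898 and Bak1 on chromosome 17 from 27019810 to 27029009, both on the minus strand. Of the BH3-only genes, Bcl2l11 spans 128126038 to 128162547 of chromosome 2 (plus), Bad 6941861 to 6951899 of chromosome 19 (plus), Bid 120891930 to 120916853 of chromosome 6 (minus) and Bbc3 16308393 to 16318205 of chromosome 7 (plus). Exons of Bcl2, Bak1 and Bad overlap those of D630008O14Rik, Ggnbp1 and Gpr137 on the opposite strand, and Bax shares 17.6% of its 50-base words with Gm45808, so counts of these members may hold some reads of their partners.

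FOXO factors are the textbook link from cytokine withdrawal to BIM and PUMA. The 250 bases before each RefSeq start of the members were therefore searched for the FOXO core TGTTTAC on both strands, in promoter sequence of GRCm38.p6. Some RefSeq starts lie inside the GENCODE genes given above. The Bbc3 window with the motif, at 16310011 to 16310260, is within the Bbc3 gene that starts at 16308393, and holds 0 exonic bases. The Bak1 window and a window of Bcl2l1 are also inside their genes and wholly exonic. Of 15 windows from 9 members, 2 held it, 1 of Bcl2l11 and 1 of Bbc3, against 3.17% of 32851 windows of the same length genome-wide. These windows are printed 5′ to 3′ on the strand of the gene with the motif, or its reverse complement, in capitals. They are followed by a window of Bcl2 and the window of Mcl1, in which the letters did not occur. The RNA of this prosurvival pair moved in opposite directions between the stages of IL-3 cultures, while with TSLP the Bcl2 values of the stages overlapped.
Bcl2l11 (chr2:128125788-128126037, plus strand, reverse complement starting 227 bases before the start): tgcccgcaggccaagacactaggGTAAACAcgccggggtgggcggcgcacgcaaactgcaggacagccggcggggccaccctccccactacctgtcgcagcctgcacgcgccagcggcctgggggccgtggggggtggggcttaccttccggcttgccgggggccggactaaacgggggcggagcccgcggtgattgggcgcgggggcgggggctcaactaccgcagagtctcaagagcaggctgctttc
Bbc3 (chr7:16310011-16310260, plus strand, starting 167 bases before the start): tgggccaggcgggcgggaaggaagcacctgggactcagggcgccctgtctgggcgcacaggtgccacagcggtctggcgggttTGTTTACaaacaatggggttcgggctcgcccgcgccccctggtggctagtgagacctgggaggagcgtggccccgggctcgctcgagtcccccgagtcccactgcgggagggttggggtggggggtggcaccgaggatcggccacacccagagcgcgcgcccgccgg
Bcl2 (chr1:106714291-106714540, minus strand): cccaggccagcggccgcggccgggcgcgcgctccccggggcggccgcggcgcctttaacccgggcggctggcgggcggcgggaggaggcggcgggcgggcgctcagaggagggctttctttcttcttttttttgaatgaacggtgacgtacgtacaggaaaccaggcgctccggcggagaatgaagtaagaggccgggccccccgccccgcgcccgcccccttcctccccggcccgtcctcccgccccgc
Mcl1 (chr3:95658471-95658720, plus strand): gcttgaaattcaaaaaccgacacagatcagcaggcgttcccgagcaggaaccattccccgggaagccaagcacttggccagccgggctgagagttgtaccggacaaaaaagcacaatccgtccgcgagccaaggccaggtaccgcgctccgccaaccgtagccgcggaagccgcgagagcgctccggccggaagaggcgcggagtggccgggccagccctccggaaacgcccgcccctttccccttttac
The 4 windows were rich in G and C, at 72.0%, 72.4%, 74.8% and 64.4% in the order printed. The E-box CACGTG occurred in 2 of the 15 windows, of Bax and Bbc3 (6.02% of all windows). The GC box GGGCGG occurred in 10 of the 15 windows, from 7 of the 9 members (32.7% of all windows). The STAT motif TTCNNNGAA (7.02%), the cyclic AMP response element TGACGTCA (1.55%) and the TATA box TATAAA (12.4%) occurred in windows of 0 members. A match in letters is a description of the window, not a binding site, and its absence here says nothing of sites elsewhere.

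Library totals ran from 1720065 to 3685285 counts, and values are counts scaled to a fixed library size of mapped reads (CPM) with the trimmed-mean (TMM) factors of edgeR. The basophil list of 7 genes had 0 genes at 0 counts in every library, the immature-stage pair Clec12a and Cd34 summed to 117.6 to 298.2 CPM in the immature and 2.71 to 13.2 CPM in the mature libraries, and the mature-stage pair Cd9 and Itga2 to 339.1 to 726.9 against 979.9 to 1453 CPM. Fcer1a, which encodes the gated FcεRIα, was at 1584 to 1614 CPM in immature and 865.4 to 1267 CPM in mature cells with IL-3, but with TSLP the library labelled TSLP mature 1 held 1779 CPM, above the immature ones at 1262, 1222 and 1530 CPM, against 870.7 and 1141 CPM in its mates. Itga2, which encodes CD49b, was at 96.9 CPM in that library, nearer to the TSLP immature ones at 81.5, 89.1 and 88.5 CPM than to its mates at 208.5 and 199.1 CPM, so both genes of the gate went against its label. The 5 cell cycle genes Mki67, Top2a, Ccnb1, Cdk1 and Bub1 summed to 1390 to 1427 CPM in immature and 15.3 to 20.03 CPM in mature libraries of IL-3 cultures, and to 891.7 to 924.0 and 47.1 to 57.6 CPM in those of TSLP cultures. The 5 monocyte and macrophage genes were all detected in every library and summed to 25.8 to 39.3 and 272.4 to 376.5 CPM in immature and mature libraries with IL-3, and to 105.8 to 135.8 and 374.2 to 641.3 CPM with TSLP, so they moved with maturation as many members did. The sum of the 4 eosinophil genes did so too, at 27.4 to 36.4 CPM in immature and 62.3 to 86.9 CPM in mature libraries of IL-3, and at 16.0 to 33.0 and 60.4 to 79.6 CPM in those of TSLP. Siglecf and Ccr3 rose in both cultures, but Epx had at most 2 counts in a library. Prg2 fell with IL-3, from 26.7, 22.0 and 22.2 CPM in immature to 3.56, 2.55 and 3.61 CPM in mature libraries. The 8 neutrophil genes summed to 165.2 to 194.5 CPM in immature and 303.4 to 426.7 CPM in mature cells with IL-3. Among them Lcn2 went the other way, from 92.2, 109.1 and 119.9 CPM to 25.65, 24.8 and 20.3 CPM. The B lineage genes summed to 27.4 to 32.7 CPM in TSLP immature libraries against at most 6.95 CPM in those of IL-3. The share of ribosomal RNA was 35.0% to 40.1% in immature cells with TSLP and 14.7% to 24.97% with IL-3, and 17.3% to 34.7% against 20.2% to 24.5% in mature cells. The part of these lists, of the cell cycle and of ribosomal RNA in the results was not tested, and in bulk samples fewer cells of a type and less RNA per cell cannot be told apart. TSLP mature 1 stood apart from its 2 mates. Relative to the mean of those mates, its genes with transcripts under 1824 bases were 1.09 higher on the log2 scale than those with transcripts over 4410 bases. Its neutrophil genes summed to 827.7 CPM against 59.9 and 50.8 CPM, its B lineage genes to 151.1 against 16.2 and 18.5 CPM, and its ribosomal RNA took 17.3% against 31.5% and 34.7%. Where leaving it out changed a call, a direction or the size of a TSLP value by much, the value without it is given.

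Compared per kilobase of annotated transcript, Bax, the effector that moves from the cytosol to mitochondria, and Mcl1 were the 2 most abundant members in every group. With IL-3, Bax stood at 120.5 ± 12.1 CPM per kb in immature and 254.7 ± 32.9 in mature cells, and with TSLP at 168.7 ± 10.1 and 199.4 ± 63.7 (mean ± SD, n = 3). Mcl1 stood at 58.9 ± 7.02, 166.4 ± 5.67, 79.4 ± 8.68 and 148.6 ± 20.3 CPM per kb in the same order. The 3 libraries of Bax lay above the 3 of Mcl1 in every group except TSLP mature, where they overlapped. This order rests on the division by length. In CPM the means of Mcl1 were the higher ones, at 201.1, 568.8, 271.3 and 508.1 in the same order, against 104.4, 220.8, 146.3 and 172.9 for Bax. Next came Bak1 in the immature groups, at 26.8 ± 4.74 with IL-3 and 37.3 ± 4.4 with TSLP, and Bid, a BH3-only protein activated by cleavage, in the mature groups, at 24.0 ± 3.58 and 30.2 ± 2.93 CPM per kb. Bid overlapped its neighbour in both mature groups, and so did Bak1 in IL-3 immature cells. At the low end stood Bcl2l11, at 1.73 ± 0.66, 6.05 ± 2.13, 3.26 ± 0.25 and 6.09 ± 1.4 CPM per kb, below every other member except Bcl2 (5.06 ± 1.06) in IL-3 mature cells, and it overlapped with Bcl2 in both mature groups. Per-kilobase levels use 1 annotated transcript for each gene and would shift with another choice of transcript.

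**Figure D1:**
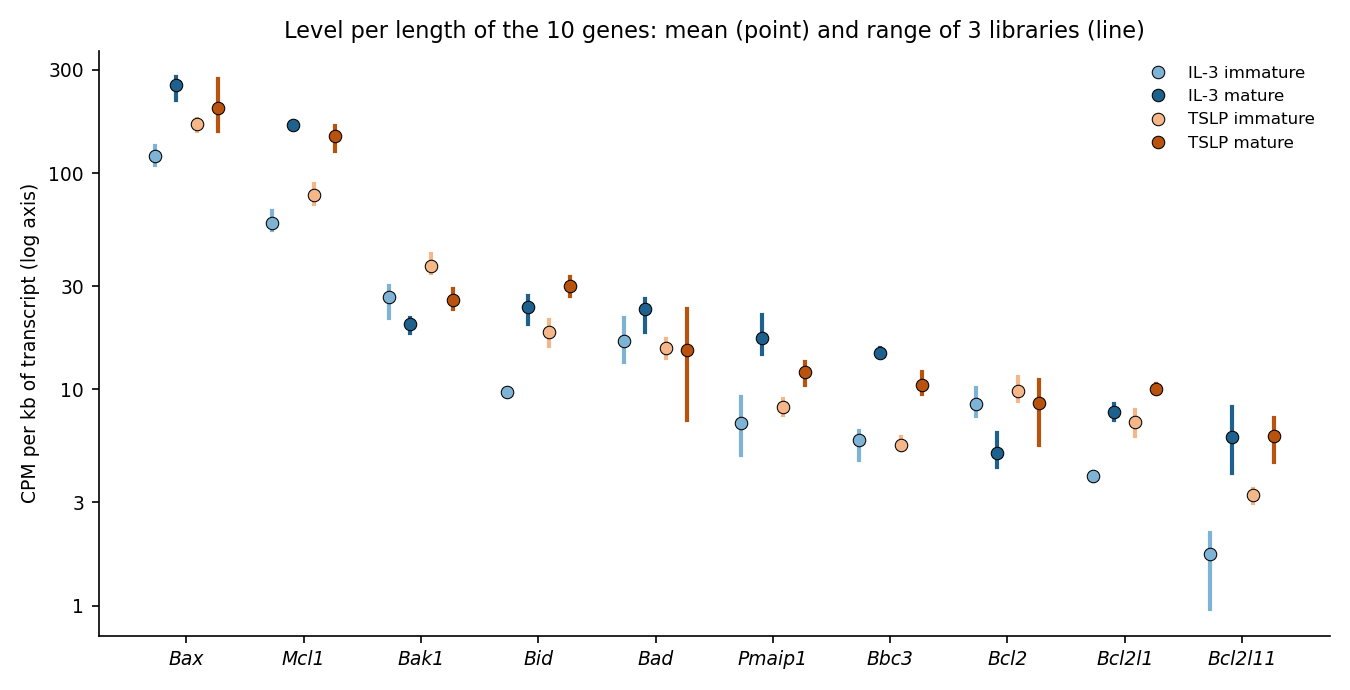
TMM-normalised CPM per kb of annotated transcript on a log axis for the 10 members, with a point at the mean of every group and a line over the range of its 3 libraries. Bax and Mcl1 are the top pair in all 4 groups, and Bcl2l11 is lowest in 3 of the 4.

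Sorted immature cells were compared with mature cells within each cytokine, the question being how the survival and death genes shift as BMBAs mature. In IL-3 cultures 8 of the 10 members were called at an adjusted p under 0.05 by the quasi-likelihood test of edgeR, against 46.2% of all tested genes (22.1% higher and 24.1% lower in immature cells). Of these, 7 were higher in mature cells and 1, Bcl2, was higher in immature cells. The median log2 fold change of immature over mature cells was -1.18 over the members and -0.06 over all tested genes. For 9 of the 10 members the 3 libraries of one stage all lay above the 3 of the other, as for 57.8% of all tested genes. The members were named, not drawn at random, so the counts describe these genes only.

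Among the prosurvival genes, Mcl1 rose with maturation in IL-3 cultures, from 185.8, 188.8 and 228.8 CPM in the immature libraries to 573.5, 585.4 and 547.5 in the mature ones. Every mature library was far above every immature one, and the log2 fold change of immature over mature cells was -1.50 ± 0.18 (SE, adjusted p = 3.81e-06), a 2.83-fold difference. Bcl2l1 was also higher in mature cells, at 22.1, 19.7 and 18.5 CPM against 9.70, 10.3 and 10.6 CPM (log2 fold change -0.97 ± 0.20, adjusted p = 0.000928). Bcl2, the founding member of the family, went the other way, with 72.8, 56.8 and 54.0 CPM in immature and 32.4, 45.2 and 31.6 CPM in mature libraries. The groups did not overlap, but the difference was 1.67-fold with a log2 fold change of 0.74 ± 0.25 (adjusted p = 0.021), and its 95% interval reached from 0.22 to 1.26. This call was lost without IL-3 immature 1, IL-3 mature 1 or IL-3 mature 3 (adjusted p = 0.056 to 0.08), whereas those of Mcl1 and Bcl2l1 held under all 21 alternative settings.

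The effectors diverged in IL-3 cultures. Bax was higher in mature cells, at 240.4, 233.9 and 188.1 CPM against 94.6, 115.4 and 103.3 CPM in immature cells, with a log2 fold change of -1.08 ± 0.21 (adjusted p = 0.000502). Bak1, which resides in the mitochondrial outer membrane, was at 50.9, 71.4 and 69.5 CPM in immature and 50.9, 43.7 and 49.6 CPM in mature libraries. Its lowest immature library barely cleared its highest mature one, and the log2 fold change of 0.42 ± 0.18 missed the threshold (adjusted p = 0.069). Under 10 of the 21 alternative settings Bak1 did pass, among them DESeq2 and the fits without IL-3 immature 1, TSLP immature 3, TSLP mature 1 or TSLP mature 2, with log2 fold changes of 0.45 to 0.58 (adjusted p = 0.017 to 0.0496).

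Of the BH3-only genes, 4 of 5 were higher in IL-3 mature cells. Bcl2l11 had the largest fold change of the 10 members, from 4.85, 10.3 and 10.9 CPM in immature to 20.7, 28.8 and 41.9 CPM in mature libraries (log2 fold change -1.75 ± 0.31, adjusted p = 0.000218), although it rests on few reads, with a lowest count of 10 in IL-3 immature 1. Bid was tightly grouped in immature cells at 20.9, 21.4 and 21.5 CPM and reached 54.5, 59.0 and 43.7 CPM in mature cells (-1.30 ± 0.18, adjusted p = 2.86e-05). Bbc3 was at 11.6, 8.57 and 11.6 CPM against 28.1, 25.9 and 26.2 CPM (-1.35 ± 0.21, adjusted p = 6.73e-05). The 2 stages of all 3 genes were well apart, with no immature library near a mature one. Pmaip1, whose product binds MCL-1 and promotes its removal, rose from 13.6, 25.1 and 18.5 CPM to 41.3, 39.7 and 60.4 CPM (-1.27 ± 0.23, adjusted p = 0.000321). Bad, a BH3-only protein that growth factor kinases inactivate by phosphorylation, was the one without a call: its libraries at 19.4, 31.1 and 22.2 CPM overlapped the mature ones at 37.8, 37.9 and 26.6 CPM, and the 95% interval of the log2 fold change ran from -1.14 to 0.18 (adjusted p = 0.223). The calls of Bax, Bcl2l11, Bid, Bbc3 and Pmaip1 in IL-3 cultures held under all 21 alternative settings.

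**Figure D2:**
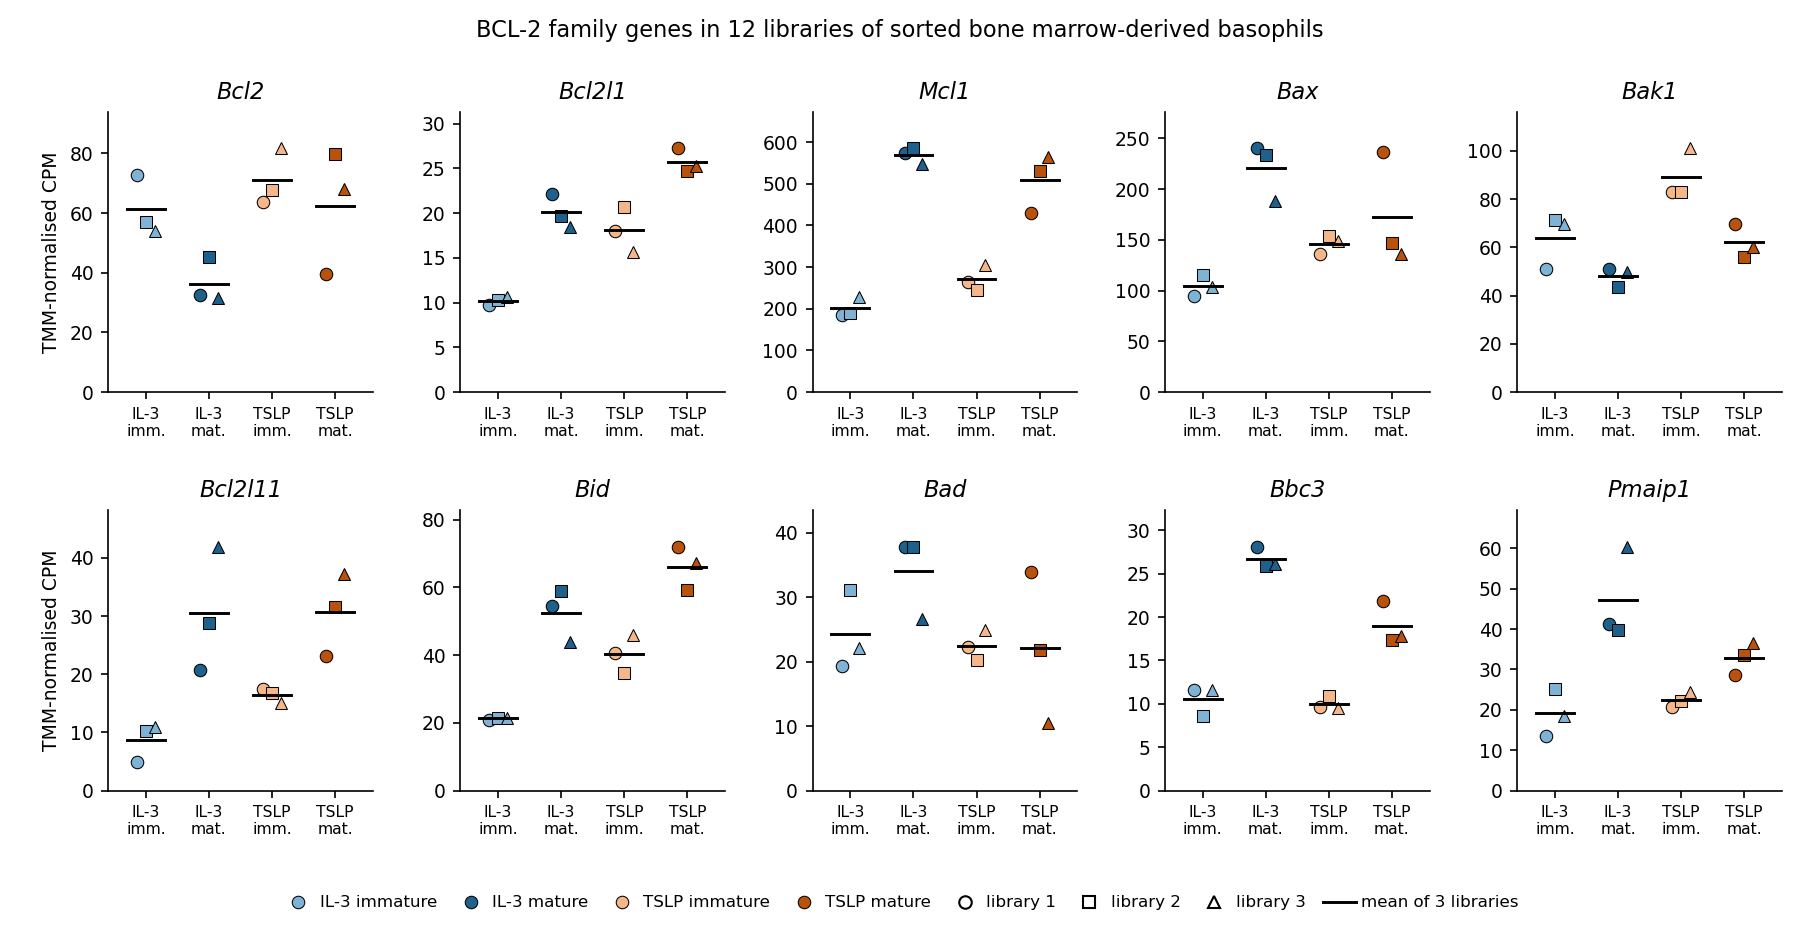
TMM-normalised CPM of each of the 10 members, 1 panel a gene with its own linear axis starting at 0, with 1 point for each library and a bar at the mean of the 3 libraries of a group. Mcl1, Bcl2l1, Bcl2l11, Bid, Bbc3 and Pmaip1 lie higher in the mature libraries of each culture, Bcl2 is lowest in IL-3 mature cells, and Bad overlaps throughout.

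In TSLP cultures 5 of the 10 members were called between the stages, against 25.1% of all tested genes (12.2% higher and 12.9% lower in immature cells). Mcl1, Bcl2l11, Bid and Bbc3 were higher in mature cells, and Bak1 was higher in immature cells. The median log2 fold change of immature over mature cells was -0.53 over the members, nearer to 0 than in IL-3 cultures, and -0.03 over all tested genes. For 7 of the 10 members the stages did not overlap, as for 38.3% of all tested genes.

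Mcl1 was at 263.7, 246.2 and 304.0 CPM in TSLP immature and 430.3, 530.5 and 563.4 CPM in TSLP mature libraries, a 1.87-fold difference (log2 fold change -0.90 ± 0.17, adjusted p = 0.00116). Bbc3 was at 9.62, 10.9 and 9.53 CPM against 21.9, 17.3 and 17.8 CPM (-0.92 ± 0.21, adjusted p = 0.00401). Both were cleanly separated by stage, and these calls held under all 21 alternative settings. Bid was at 40.6, 34.8 and 46.0 CPM in immature and 72.0, 59.3 and 67.1 CPM in mature libraries (-0.71 ± 0.17, adjusted p = 0.00677), a call lost only without TSLP immature 2 (-0.55, adjusted p = 0.07). Without TSLP mature 1 the log2 fold changes of Mcl1, Bbc3 and Bid were -0.92, -0.72 and -0.55 (adjusted p = 0.000307, 0.0197 and 0.0206). Bcl2l11 was at 17.4, 16.8 and 14.98 CPM against 23.2, 31.5 and 37.2 CPM (-0.90 ± 0.28, adjusted p = 0.0274). Its stages did not overlap, but the call was lost under a filter of 10 CPM and without IL-3 immature 2 or 3, IL-3 mature 2, any TSLP immature library, or TSLP mature 2 or 3 (adjusted p = 0.0516 to 0.134), while without TSLP mature 1 it held (-0.97, adjusted p = 0.0133).

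Bak1 was at 83.0, 82.8 and 101.1 CPM in TSLP immature and 69.6, 56.2 and 60.3 CPM in TSLP mature libraries. All 3 immature libraries were the higher ones, with a log2 fold change of 0.52 ± 0.18 (adjusted p = 0.0394). The call was lost with no low-count filter, with only the 2 groups fitted, and without IL-3 mature 1, TSLP immature 1 or 3, or TSLP mature 2 or 3 (adjusted p = 0.0507 to 0.0808), and without TSLP mature 1 the value was 0.70 (adjusted p = 0.00533). The other 5 members were not called. Bcl2l1, at 18.0, 20.7 and 15.7 against 27.3, 24.7 and 25.2 CPM, had stages that did not overlap and an adjusted p of 0.0524 (log2 fold change -0.51 ± 0.18). Pmaip1 had a log2 fold change of -0.55 ± 0.23 (adjusted p = 0.0923). Bcl2, at 63.7, 67.6 and 81.7 against 39.7, 79.7 and 68.0 CPM, overlapped between the stages, with a 95% interval of the log2 fold change from -0.31 to 0.68. Bad did so too, with an interval from -0.65 to 0.69. Without TSLP mature 1 the log2 fold changes of Bcl2l1, Pmaip1, Bcl2 and Bad were -0.37, -0.54, 0.03 and 0.56, with none of the 4 called.

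The direction of Bax in TSLP cultures changed when a single library was left out. It was at 136.5, 153.6 and 148.8 CPM in the immature libraries, and at 236.4, 146.7 and 135.7 CPM in TSLP mature 1, 2 and 3. TSLP mature 1 was far above all others of the culture, while TSLP mature 2 lay among the immature ones and TSLP mature 3 just below them. The log2 fold change was -0.24 ± 0.20 (adjusted p = 0.422), and without TSLP mature 1 it was 0.14 (adjusted p = 0.538). Bax has the shortest annotated transcript of the members, 867 bases, and in TSLP mature 1 it lay 0.74 above the mean of the mates on the log2 scale. The other members followed a similar order: Bad (1452 bases) lay 1.13 above the mates, Bbc3 (1814 bases) 0.30 above, Mcl1 (3418 bases) -0.35, Bcl2l11 (5036 bases) -0.55 and Bcl2 (7191 bases) -0.88 relative to them. With offsets that take out the trend of counts with length in each library, an alternative chosen after seeing the data, Bax was higher in TSLP mature cells (log2 fold change of immature over mature -0.49, adjusted p = 0.0143). These offsets act on every library, and the part of transcript length in the values of TSLP mature 1 was not tested.

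**Figure D3:**
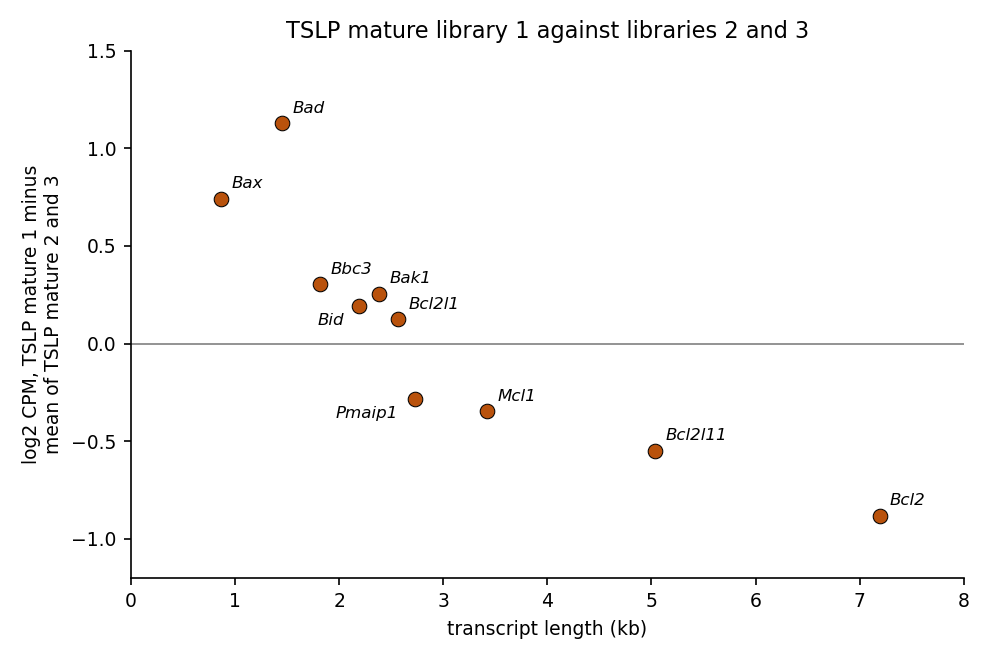
For each member, the log2 CPM of TSLP mature 1 minus the mean log2 CPM of TSLP mature 2 and 3 (vertical axis) against the length of its annotated transcript in kb (horizontal axis). Bad and Bax, with short transcripts, lie 1.13 and 0.74 above the mates, and Bcl2, the longest, lies at -0.88.

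Whether maturation moved the members by different amounts in the 2 cultures was tested as an interaction. By edgeR 0 of the 10 members were called, against 4.19% of all tested genes. At an unadjusted p under 0.05 there were 4 members, and DESeq2 called 0. By the TSLP minus IL-3 difference of the log2 fold changes, these were Bax (0.84 ± 0.29, adjusted p = 0.125), Mcl1 (0.59 ± 0.24, adjusted p = 0.198), Bid (0.59 ± 0.25, adjusted p = 0.214) and Pmaip1 (0.73 ± 0.33, adjusted p = 0.245), none of which passed the threshold of edgeR after adjustment. A positive difference means that the stages were less far apart toward mature cells, or further apart toward immature cells, with TSLP. The difference was positive for 9 of the 10 members and for 5589 of the 10861 tested genes. The exception among the members was Bcl2 at -0.55 (adjusted p = 0.409). The members' median was 0.55 and that of all tested genes 0.02. Without TSLP mature 1 the difference of Bax was 1.18 (adjusted p = 0.00417), the 1 call among the members under that setting.

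**Figure D4:**
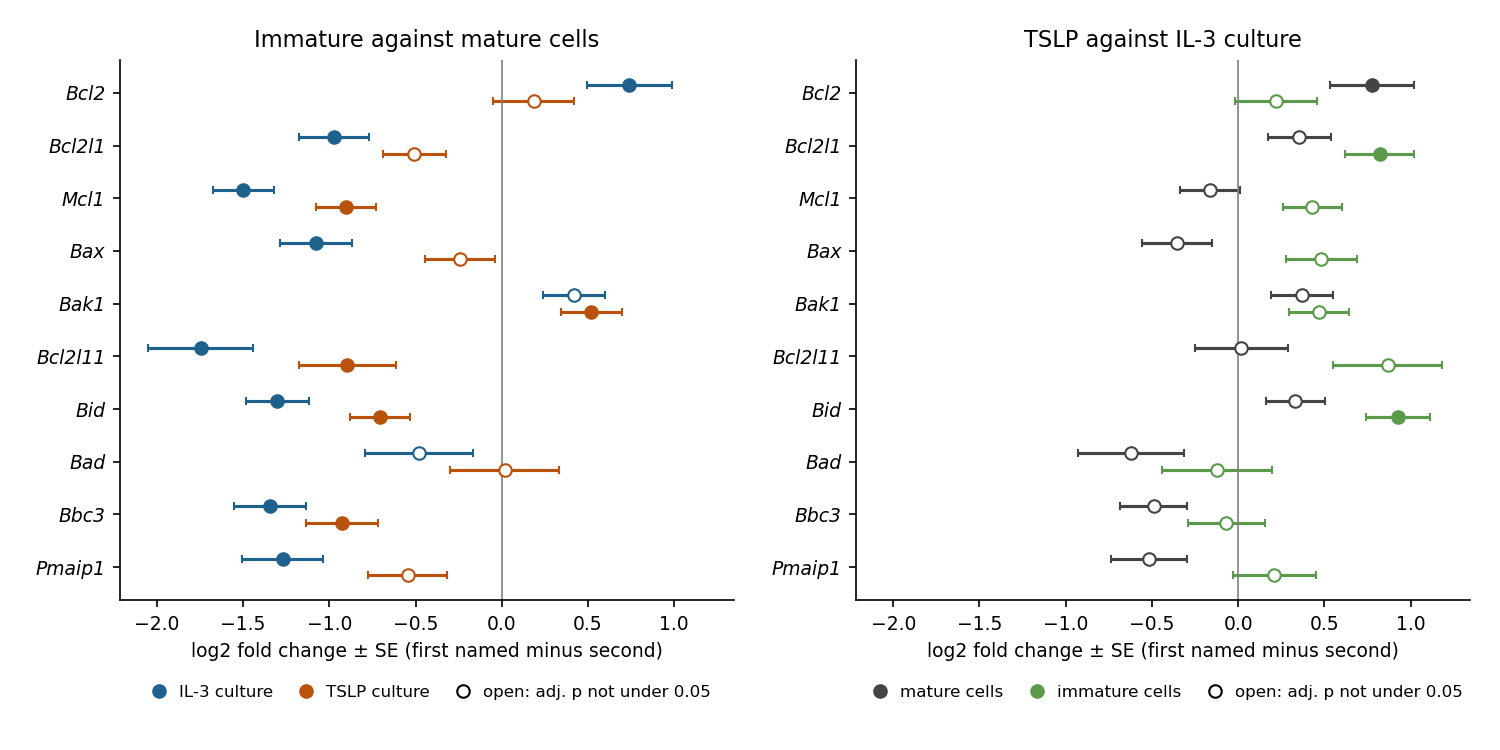
Log2 fold changes of the 10 members with bars of ± SE in the 4 pairwise comparisons, with filled points for an adjusted p under 0.05 by edgeR and open points for the rest. In the stage comparison of IL-3 cultures 7 called members lie to the mature side and Bcl2 to the immature side. The 95% intervals, which are wider than the bars drawn, cross 0 between the cytokines for 7 members in mature and 4 in immature cells.

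TSLP was then compared with IL-3 at each stage. Between mature cells 1 of the 10 members was called, against 24.3% of all tested genes (12.4% higher and 11.9% lower with TSLP). The member called was Bcl2, at 39.7, 79.7 and 68.0 CPM with TSLP and 32.4, 45.2 and 31.6 CPM with IL-3. The groups overlapped, because TSLP mature 1 was below the highest IL-3 mature library, and the log2 fold change was 0.77 ± 0.24 (adjusted p = 0.0301). Without TSLP mature 1 it was 0.93 (adjusted p = 0.00218). The call was lost with only the 2 groups fitted and without IL-3 immature 2, IL-3 mature 1 or 3, TSLP immature 1 or 2, or TSLP mature 2 or 3, with log2 fold changes of 0.50 to 0.74 (adjusted p = 0.0521 to 0.157). Bcl2 was the lowest in IL-3 mature cells of the 4 groups, and every IL-3 mature library lay below every IL-3 immature library, whereas the other 3 groups overlapped with their neighbours.

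The other 9 members were not called between mature cells. Mcl1 differed by -0.16 ± 0.17 on the log2 scale (adjusted p = 0.525), with a 95% interval from -0.53 to 0.20. Bcl2l11 had nearly the same mean in both, 30.5 ± 10.7 CPM with IL-3 and 30.6 ± 7.05 CPM with TSLP, but the interval ran from -0.55 to 0.59. Bbc3 at 21.9, 17.3 and 17.8 CPM with TSLP lay wholly below its IL-3 values of 28.1, 25.9 and 26.2 CPM (-0.49 ± 0.19, adjusted p = 0.0745), and Pmaip1 likewise (28.6, 33.5 and 36.6 against 41.3, 39.7 and 60.4 CPM, adjusted p = 0.101). With the length offsets Bbc3 (-0.60, adjusted p = 0.0172) and Pmaip1 (-0.59, adjusted p = 0.0459) were called. Bcl2l1, Bak1 and Bid also had groups that did not overlap, each higher with TSLP, and an adjusted p of 0.172, 0.148 and 0.172. For 5 of the 10 members the cytokines did not overlap in mature cells, as for 38.6% of all tested genes. Leaving out TSLP mature 1 brought the member count to 4: beside Bcl2, these were Bax (-0.73, adjusted p = 0.00403), Bad (-1.16, adjusted p = 0.0062) and Bbc3 (-0.69, adjusted p = 0.0185), all lower with TSLP. With all libraries Bax was at -0.35 (adjusted p = 0.223), and with the length offsets at 0.029 (adjusted p = 0.901), so its direction between mature cells depended on the setting.

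Between immature cells 2 of the 10 members were called, against 13.3% of all tested genes (7.38% higher and 5.9% lower with TSLP), both higher with TSLP. Bid was at 40.6, 34.8 and 46.0 CPM with TSLP and 20.9, 21.4 and 21.5 CPM with IL-3, a 1.90-fold difference (log2 fold change 0.93 ± 0.19, adjusted p = 0.00413) that held under all 21 alternative settings. Bcl2l1 was at 18.0, 20.7 and 15.7 CPM against 9.70, 10.3 and 10.6 CPM (0.82 ± 0.20, adjusted p = 0.0143), with all 3 TSLP libraries well above those of IL-3. This call was lost with no low-count filter and without IL-3 immature 1 or 2 or TSLP immature 1 or 2 (adjusted p = 0.0531 to 0.0736). The IL-3 and TSLP libraries did not overlap for 6 of the 10 members in immature cells, as for 38% of all tested genes, and each of the 6 was higher with TSLP. Those beside Bid and Bcl2l1 were Mcl1 (log2 fold change 0.43, adjusted p = 0.112), Bcl2l11 (0.87, adjusted p = 0.0808), Bax (0.48, adjusted p = 0.134) and Bak1 (0.47, adjusted p = 0.0903). Bax passed without TSLP mature 1 (0.45, adjusted p = 0.0401), with only the 2 groups fitted (0.44, adjusted p = 0.0486) and with the length offsets (0.78, adjusted p = 0.00147). Bcl2l11 passed with the replicate number as a block (0.94, adjusted p = 0.0251) and with no low-count filter (0.84, adjusted p = 0.0379). Bbc3 had overlapping groups, a log2 fold change of -0.07 and an interval from -0.54 to 0.41. The members' median log2 fold change was 0.45 and that of all tested genes 0.04.

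Across the 4 groups, 9 of the 10 members were called in the test of any difference, against 60.8% of all tested genes, the exception being Bad (adjusted p = 0.234). IL-3 immature cells had the lowest mean for 6 members, IL-3 mature cells for 2, TSLP immature cells for 1 and TSLP mature cells for 1. From high to low, Bid ran from TSLP mature over IL-3 mature and TSLP immature to IL-3 immature cells, where only the middle pair overlapped. For Mcl1 and Bcl2l11 the 2 mature groups overlapped, while TSLP immature libraries lay between them and the IL-3 immature ones without overlap. The highest group mean exceeded the lowest by 3.53 times for Bcl2l11, 3.11 for Bid and 2.83 for Mcl1, and by 1.54 times for Bad.

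Ratios of members within a library do not depend on its scaling, but their genes differ in transcript length. A trend of counts with length in a library can enter them, and its part was not tested. TSLP mature 1 was the highest of its group for Mcl1 to Bcl2 (22.8), Bax to Bak1 (9.35) and Bcl2l11 to Bcl2 (0.84). The ratios are given per kilobase with no test, since 3 libraries against 3 cannot go below an exact two-sided permutation p of 0.1. Mcl1 exceeded Bcl2 in all 12 libraries, by 5.37, 6.99 and 8.92 times in the immature and 37.2, 27.3 and 36.5 times in the mature libraries of IL-3 cultures, and by 8.70, 7.66 and 7.83 times and 22.8, 14.0 and 17.4 times in those of TSLP cultures. The 2 immature groups overlapped, all mature libraries were above them, and IL-3 mature libraries were above TSLP mature ones. Counted among the 3 prosurvival genes per kilobase, Mcl1 made up 82.4% ± 2.78 of the immature and 92.8% ± 0.40 of the mature total with IL-3, and 82.3% ± 1.64 and 88.8% ± 0.66 with TSLP. The ratio of Bax to Bak1 was 4.55 ± 0.52 in IL-3 immature and 4.56 ± 0.53 in TSLP immature cells, and 12.7 ± 2.16 in IL-3 and 7.58 ± 1.61 in TSLP mature cells, with TSLP mature 1 the highest of its group at 9.35. The ratio of Bcl2l11 to Bcl2 went from 0.21 ± 0.10 to 1.24 ± 0.57 in IL-3 and from 0.34 ± 0.07 to 0.73 ± 0.14 in TSLP cultures, and no mature library was as low as an immature one. Set against Mcl1 in place of Bcl2, the same BH3-only gene gave ratios of 0.029 ± 0.010 and 0.037 ± 0.014 for the stages of IL-3 and 0.042 ± 0.007 and 0.041 ± 0.004 for those of TSLP cultures, and these overlapped among all 4 groups.

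**Figure D5:**
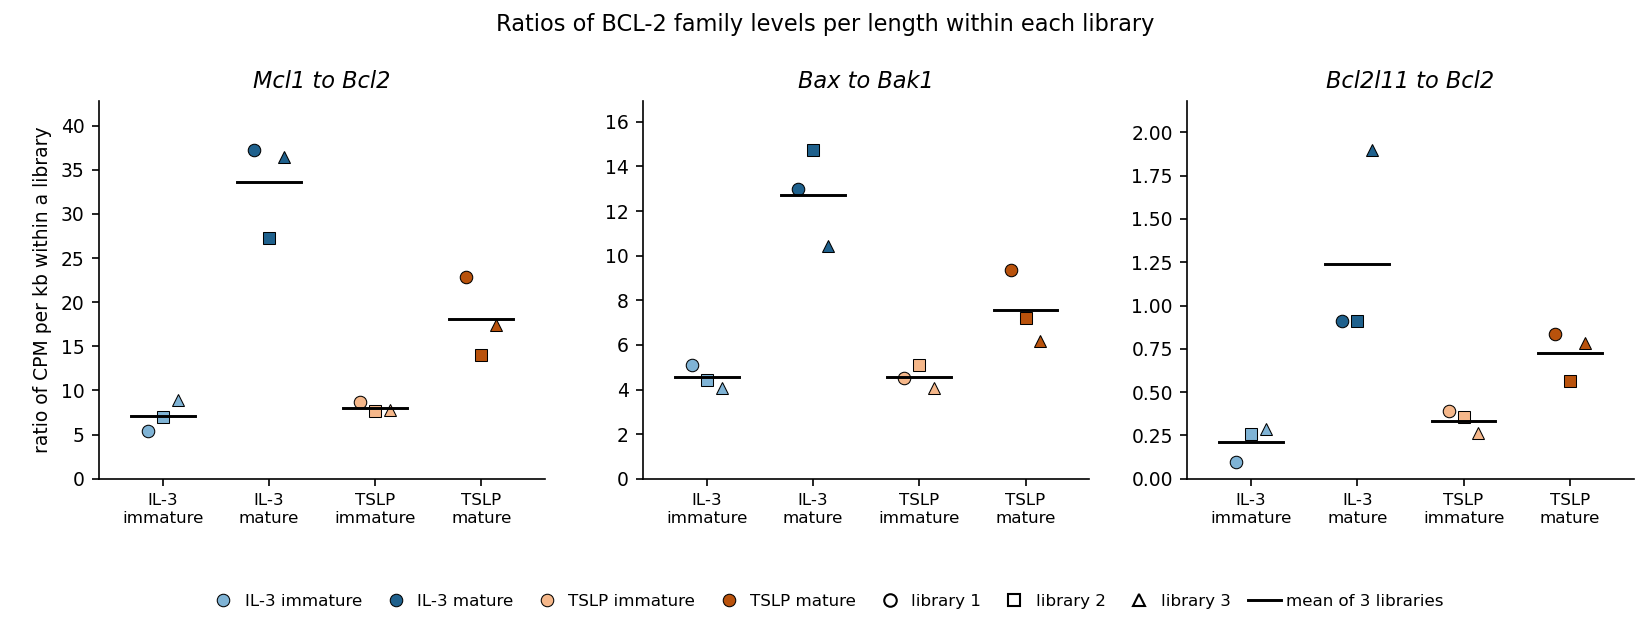
Ratios of CPM per kb within each library, on linear axes starting at 0, for Mcl1 to Bcl2, Bax to Bak1 and Bcl2l11 to Bcl2, with 1 point a library and a bar at the mean of 3. All 3 ratios are higher in the mature libraries, and for Mcl1 to Bcl2 and Bax to Bak1 the IL-3 mature libraries lie above the TSLP mature ones.

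Most other genes of the family had few counts. Of 15 listed genes 14 were in the table and 6 passed the filter, of which 4 were called between the stages in IL-3 cultures (1 higher and 3 lower in immature cells), 4 in TSLP cultures (2 and 2), and 1 in each comparison of the cytokines, against 46.2%, 25.1%, 24.3% and 13.3% of all tested genes. Bcl2l2 (BCL-W), a further prosurvival gene, was higher in immature cells, at 11.3 against 3.67 CPM with IL-3 (log2 fold change 1.62 ± 0.31, adjusted p = 0.000506). Bmf, a BH3-only gene, was higher in mature cells with TSLP, at 22.5 against 9.02 CPM (-1.29 ± 0.28, adjusted p = 0.00277), as well as with IL-3 (-0.79, adjusted p = 0.0276). The IL-3 call of Bmf was lost by DESeq2, under both other filters, and without IL-3 immature 1 or 3 or IL-3 mature 2 or 3 (adjusted p = 0.0502 to 0.166). Bnip3l and Bnip3, relatives that act in mitophagy, were respectively higher in IL-3 mature than immature cells (112.8 against 58.2 CPM) and higher with TSLP at both stages (50.7 against 28.0 CPM in mature cells, adjusted p = 0.00323). Bcl2a1a, Bcl2a1b and Bcl2a1d, near-identical copies of the prosurvival gene A1, had at most 13 counts in all over the 3 libraries of any group, and the BH3-only gene Bik at most 17, so none was tested. The A1 copies share 69.0%, 79.2% and 79.5% of their 50-base words with other genes. How reads with several matches were counted is not given, so the counts of these copies may miss reads.

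Of the 13 tested apoptosome, caspase and released-protein genes, which act downstream of the mitochondrion, 5 were called between the stages in IL-3 cultures and all 5 were higher in immature cells, and 3 of 13 were called in TSLP cultures, also all higher in immature cells. These shares were below the 46.2% and 25.1% of all tested genes called there. Cycs, encoding cytochrome c, was at 120.5 CPM in immature and 34.9 CPM in mature cells with IL-3 (1.78 ± 0.24, adjusted p = 1.89e-05). Cell cycle genes moved with the stage as well, and their part in these differences was not tested.

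Of the 5 inhibitor of apoptosis genes, 2 were called between the stages in each culture, in opposite directions, against 46.2% of all tested genes with IL-3 and 25.1% with TSLP. Birc5 (survivin), which serves in mitosis, was at 106.4 against 2.80 CPM in IL-3 immature and mature cells (5.27 ± 0.45, adjusted p = 1.29e-07) and at 69.4 against 6.48 CPM with TSLP. Birc3 was higher in mature cells (-1.06 ± 0.17, adjusted p = 8.13e-05, with IL-3 and -0.57, adjusted p = 0.0168, with TSLP). The TSLP call of Birc3 was lost with no low-count filter, with only the 2 groups fitted, and without any TSLP immature library or TSLP mature 2 or 3 (adjusted p = 0.0505 to 0.139). Between the cytokines edgeR called 0 of the 5 in mature and in immature cells, against 24.3% and 13.3% of all tested genes. In each comparison 1 was at an unadjusted p under 0.05, and DESeq2 called 0 in both.

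Of the 13 tested upstream regulators, 10 were called between the stages with IL-3 (3 higher and 7 lower in immature cells) and 4 with TSLP, against 46.2% and 25.1% of all tested genes. Foxo3 was higher in IL-3 mature than immature cells, at 251.0 against 104.7 CPM (-1.26 ± 0.22, adjusted p = 0.000245). With TSLP its means were 211.3 CPM in mature and 141.3 CPM in immature cells, and it was not called there by edgeR after adjustment. Foxo1 was higher in mature cells with IL-3 (-1.11, adjusted p = 0.00124) and with TSLP (-1.44 ± 0.22, adjusted p = 0.000202). Trp53, encoding p53, was higher in IL-3 immature cells (1.05, adjusted p = 0.000117), while Cdkn1a, a textbook p53 target and cell cycle inhibitor, was at 95.1 CPM in immature and 397.6 CPM in mature cells with IL-3 (-2.06 ± 0.21, adjusted p = 9.4e-07). Cdkn1a was lower in TSLP than in IL-3 mature cells (-1.17 ± 0.21, adjusted p = 0.00125), and Akt1, a survival kinase, was higher there (0.77 ± 0.21, adjusted p = 0.015), a call lost without IL-3 mature 2 or TSLP mature 3 (adjusted p = 0.105 and 0.0738). E2f1, a cell cycle factor, was higher in immature cells with IL-3 (2.10 ± 0.23, adjusted p = 2.13e-06).

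The genes whose values over the 12 libraries ran closest to 3 members were found by the root mean square difference of log2 CPM, each gene centred on its own mean, among 7549 genes of at least 10 CPM. For Mcl1 they were Cd44, Tmem123 and Tk2, at differences of 0.119, 0.136 and 0.139 against a median of 0.70 over all those genes. For Bid they were Rab19, Pi16 and Ppp1r15a, at 0.135, 0.145 and 0.151, and for Bbc3 Zfp219, S1pr4 and Otud5, at 0.11, 0.137 and 0.155. The measure ranks likeness of pattern over libraries of 4 groups and does not speak to shared control.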

How the data were processed

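Per the study's methods, poly(A) RNA was captured on oligo(dT) beads, the whole transcriptome was amplified by PCR and sequenced on an Ion Proton instrument, and reads were trimmed with Cutadapt and mapped by Bowtie2 to reference transcripts of GRCm38. The submitters' processing notes name mm10 and GRCm39. For molecular identifiers, strand and reads with several matches the setting was not given in the sources used here. The authors deposited 1 table of raw read counts per gene symbol. An unnamed row equal to the column total (50% of each column) was left out, and 0 columns were unmapped.

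Genes were kept by filterByExpr (minimum count 10, total 15), scaled by TMM and tested with the quasi-likelihood test of edgeR 4.0.16 in R 4.3.3, with 1 mean for each of 4 groups over 12 libraries and no block. The common coefficient of biological variation was 20.4%. Benjamini-Hochberg adjustment ran over 10861 genes. DESeq2 1.42.0 and 20 other settings were alternatives. In simulated counts for the IL-3 comparison, 93 of 10484 genes were changed 2-fold and 99 were changed 4-fold, with the rest left unchanged. Of these changes 36.6% and 84.8% were called. In the data 46.2% of tested genes were called in that comparison, so these shares do not measure its power. The study states separate cultures, and the labels do not tie libraries to animals, so p values measure the spread between these samples. Members and lists were chosen with earlier results of these data known. All members were named, and from each other list, per comparison, the 2 called genes of largest change with at least 10 CPM. Bcl2l2, Bmf, Bik and the Bcl2a1 genes were named in any case, and Foxo1 with IL-3, Trp53 and other second values of named genes were added after their values were seen. Some genes that the rule names are not reported here. Lengths are those of the principal GENCODE M21 transcript.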

Additional observations from a re-analysis of the deposited data

Results flagged for a closer look

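Among the genes listed beside the members, 2 upstream regulators stood out because the test of the interaction, that is, of the difference between the maturation effects of the 2 cultures, passed an adjusted p under 0.05 by edgeR. For Cdkn1a the immature minus mature log2 fold change was 1.37 ± 0.29 more positive with TSLP than with IL-3 (adjusted p = 0.0132), the fold change itself being -0.69 with TSLP and -2.06 with IL-3. It was called under 19 of 20 alternative settings and lost without TSLP immature 2 (1.26, adjusted p = 0.0512). For E2f1 the difference was -1.29 ± 0.33 (adjusted p = 0.0372), from fold changes of 0.80 with TSLP and 2.10 with IL-3. This call held under 10 of 20 settings, with values of -1.41 to -1.05 over all of them, and was lost when any IL-3 library, any TSLP immature library or TSLP mature 3 was left out (adjusted p = 0.051 to 0.107).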

How the results depend on the processing

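Of the members' called results, 303 of the values under alternative settings kept direction and call, 33 lost the call and 0 reversed. Of the values of results not called, 660 kept direction without a call, 23 became called and 21 reversed. The reversals were as follows. Bcl2l11 between mature cells (main value 0.02) became -0.010 with DESeq2 size factors, -0.024 with TMM recomputed on uncalled genes, -0.013 with DESeq2, -0.025 with the 10 CPM filter, -0.020 with only the 2 groups, -0.033 without Rn45s, -0.00064 with the length offsets and -0.20 to 0.24 in leave-outs. Bax was 0.14 between the TSLP stages without TSLP mature 1 (leave-outs -0.34 to 0.14) and 0.029 between mature cells with the length offsets (main values -0.24 and -0.35), and Bad was -0.26 between the TSLP stages without TSLP mature 3 (leave-outs -0.26 to 0.56) and 0.071 between immature cells without IL-3 immature 2. The causes were not tested.

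Counts of calls over all genes moved to 1714 (main 2634) between mature cells with only the 2 groups and 799 (main 455) in the interaction with the length offsets, which were chosen after seeing the data. Leaving out 1 library gave 1774 to 3456 calls between the TSLP stages, 1658 to 2968 between mature and 588 to 2243 between immature cells, and 240 to 723 in the interaction. Member counts ran from 3 to 5, 0 to 4, 1 to 3 and 0 to 1 in these 4, and were 0 (only 2 groups) and 3 (length offsets) between mature cells and 1 in the interaction (length offsets).

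Counts of the other lists that moved over 1.5 times were, for the other BCL-2 genes, 2 (IL-3 stages, no filter), 2 (TSLP stages, only 2 groups; 2 to 4 in leave-outs) and 2 (mature, length offsets). For the apoptosome list they were 8 (IL-3 stages, length offsets), 5 (TSLP stages, no filter or length offsets), 2 (mature, replicate block or length offsets; 0 to 1 in leave-outs), 1 to 2 (immature, leave-outs) and 1 (interaction, no filter or replicate block). For the inhibitor of apoptosis genes they were 1 (TSLP stages, no filter or only 2 groups; 1 to 2 in leave-outs), 1 (mature, no filter or length offsets; 0 to 1 in leave-outs), 1 (immature, no filter, replicate block or length offsets), 2 (immature, only 2 groups; 0 to 2 in leave-outs) and 1 (interaction, DESeq2, no filter or length offsets; 0 to 1 in leave-outs). For the upstream regulators they were 1 (TSLP stages, only 2 groups; 2 to 5 in leave-outs), 5 (mature, length offsets; 1 to 5 in leave-outs), 2 (immature, replicate block, only 2 groups or length offsets; 1 to 2 in leave-outs) and 0 to 2 (interaction, leave-outs).

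The replicate numbers were not shown to pair the libraries: deviations of same-numbered libraries correlated at -0.08 to 0.39 over 18 pairs, 7 of 12 libraries correlating best with their own number. With the number as a replicate block the members' calls were 8, 5, 1, 3, 0 and 9 in the IL-3 stage, TSLP stage, mature, immature, interaction and any-difference tests. The 10 CPM filter moved the median of all genes by 0.10 in the stage comparisons. Some settings moved the split of calls over all genes by over 10 percentage points. Without TSLP mature 1 it was 2095 higher and 1361 lower between the TSLP stages (main 1328 and 1403), 1146 and 1822 between mature cells (main 1345 and 1289) and 477 and 246 in the interaction (main 233 and 222). The lowest was 38.3% higher, between mature cells without IL-3 mature 2, and no filter gave 769 and 948 between immature cells (main 802 and 641). The other such settings left out a TSLP immature library (59.0% to 59.8% higher between the TSLP stages) or IL-3 mature 2 or 3. Bcl2l11 rests on as few as 10 counts in a library.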
